A study of Homo sapiens with 30 samples.

Results

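The nuclear genes for the subunits of the mitochondrial respiratory chain and of ATP synthase were followed through an experiment on MYCN in neuroblastoma cells. Members were chosen by gene symbol alone, as table rows named for the NDUFA, NDUFB, NDUFC, NDUFS and NDUFV series, SDHA to SDHD, the UQCR series, the COX4 to COX8 series and the ATP5 series. The rule found 85 of 26228 genes, and 77 of them had a mean of at least 1 FPKM (fragments per kilobase of transcript, scaled to the mapped fragments of the library) over all libraries and could be tested among 11575 genes. These were 37 genes of complex I, 4 of complex II, 9 of complex III, 11 of complex IV and 16 of complex V. Complexes were assigned by symbol series throughout. NDUFA4, known to belong to complex IV, is therefore counted under complex I, and ATP5S, not a structural subunit, under complex V.

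In the inner mitochondrial membrane, complex I (NADH dehydrogenase) and complex II (succinate dehydrogenase) pass electrons to ubiquinone, complex III passes them on to cytochrome c, and complex IV (cytochrome c oxidase) reduces oxygen. Complexes I, III and IV pump protons as they do so, and complex V, the ATP synthase, uses the resulting gradient to make ATP. Most subunits are encoded in the nucleus, imported and joined to a core made from mitochondrial DNA, and the MYC family is known for raising many genes of mitochondrial biogenesis. The mitochondrially encoded subunits are not analysed here.

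The cells were SH-EP, a neuroblastoma line of mesenchymal type without MYCN amplification, and 4 lines made from it by retroviral transduction that stably express wild-type (WT) MYCN or MYCN with the substitution T58A, S62A or both, from a promoter that is not the gene's own. Phosphorylation at these residues controls how fast the MYCN protein is destroyed. Every line was exposed for 6 h to the solvent DMSO or to 1 μM CYC065 (fadraciclib), an inhibitor of CDK9 and CDK2. CDK9 is the kinase that releases RNA polymerase II into elongation. The 10 groups held 3 RNA-seq libraries each, 30 in all, and synthetic ERCC spike-in RNAs had been added in proportion to cell number. The parental cells carried no MYCN transgene, and whether a transduced line was 1 clone or a mixture was not given in the sources used here.

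MYCN was listed at 0 FPKM in all 6 SH-EP libraries and lay between 5.08 and 15.7 FPKM in the DMSO libraries of the MYCN lines, where MYC was at 0.377 to 1.93 FPKM against 4.64 to 5.51 FPKM in SH-EP. All 8 mesenchymal markers were detected in SH-EP, and of 8 adrenergic markers only GATA2 reached the level needed for testing. PHOX2A was at 0 in every library. Of 10 markers of epithelial, blood, endothelial and muscle cells, KRT8 alone was tested. The table gives no read counts, so the depth of the libraries is unknown, and between 40.6 and 45.8% of genes were at 0 in a library. Libraries of 1 group correlated at 0.925 to 0.959. Nothing in the sources said that the 3 libraries of a group came from separate cultures, so p-values measure the spread between these libraries, which may be technical. Each of the 6 SH-EP libraries shared its index sequence with 1 library of a MYCN line. The sequencing pool and the line cannot be told apart.

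The promoters of 6 members are shown because these genes carry the results below. NDUFS6, ATP5I, NDUFS7 and COX5B are members with a binding motif of nuclear respiratory factor 1 (NRF1), a regulator of mitochondrial genes. COX5A had the largest rise in the MYCN lines among members without a near-identical copy, and UQCRFS1 stood apart with CYC065. Sequences are from RefSeq on GRCh38.p14 and run 5′ to 3′ on the gene's strand from 200 bases before the annotated start to 30 bases after it. Capitals mark the letters of 4 motifs searched on both strands, namely GCGCATGC (NRF1), CCGGAAG (ETS factors such as GABP), AAGATGGC (YY1) and CACGTG (the E-box bound by MYC proteins).
NDUFS6: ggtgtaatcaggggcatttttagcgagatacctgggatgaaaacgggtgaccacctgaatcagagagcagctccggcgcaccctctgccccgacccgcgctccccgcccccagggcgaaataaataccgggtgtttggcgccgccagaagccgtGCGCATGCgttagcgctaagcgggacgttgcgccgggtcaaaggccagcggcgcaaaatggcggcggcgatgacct
ATP5I: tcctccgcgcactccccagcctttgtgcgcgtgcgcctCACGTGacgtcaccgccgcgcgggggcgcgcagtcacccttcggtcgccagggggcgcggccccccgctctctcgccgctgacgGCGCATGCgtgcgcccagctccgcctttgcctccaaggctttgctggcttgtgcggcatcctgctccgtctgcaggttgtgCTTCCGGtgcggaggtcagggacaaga
NDUFS7: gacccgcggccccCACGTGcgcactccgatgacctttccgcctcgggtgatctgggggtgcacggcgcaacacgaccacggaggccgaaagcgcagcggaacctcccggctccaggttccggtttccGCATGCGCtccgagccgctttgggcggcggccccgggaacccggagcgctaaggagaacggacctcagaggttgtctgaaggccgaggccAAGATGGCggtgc
COX5B: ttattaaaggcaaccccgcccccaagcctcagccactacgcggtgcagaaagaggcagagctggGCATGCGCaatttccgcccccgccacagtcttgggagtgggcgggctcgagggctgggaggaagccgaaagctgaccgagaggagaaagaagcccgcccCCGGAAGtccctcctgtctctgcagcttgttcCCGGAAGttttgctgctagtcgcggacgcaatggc
COX5A: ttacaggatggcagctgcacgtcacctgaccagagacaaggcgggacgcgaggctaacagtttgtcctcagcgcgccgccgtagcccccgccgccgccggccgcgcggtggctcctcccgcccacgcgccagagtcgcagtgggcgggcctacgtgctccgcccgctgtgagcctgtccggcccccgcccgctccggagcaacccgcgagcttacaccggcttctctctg
UQCRFS1: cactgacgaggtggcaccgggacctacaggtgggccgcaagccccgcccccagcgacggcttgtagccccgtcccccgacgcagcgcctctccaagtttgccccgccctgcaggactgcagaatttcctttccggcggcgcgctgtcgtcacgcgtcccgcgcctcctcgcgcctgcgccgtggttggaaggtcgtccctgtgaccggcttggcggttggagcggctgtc

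The windows lie at chr5:1801207-1801436 (plus strand) for NDUFS6, chr4:674247-674476 (minus strand) for ATP5I, chr19:1383707-1383936 (plus strand) for NDUFS7, chr2:97645862-97646091 (plus strand) for COX5B, chr15:74938044-74938273 (minus strand) for COX5A and chr19:29213122-29213351 (minus strand) for UQCRFS1. The NRF1 letters begin at -46 from the start in NDUFS6, at -78 in ATP5I, at -73 in NDUFS7 and at -136 in COX5B. ATP5I also held an E-box at -162 and ETS letters at 4, and NDUFS7 an E-box at -187 and YY1 letters at 18. COX5B held the ETS letters at -37 and at -5. The windows of COX5A and UQCRFS1 held none of the 4 motifs.

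A window from 250 bases before to 50 bases after the start was found for 63 of the 77 tested members, taking the first listed window of each gene. NRF1 letters were in 13 of the 63 (20.6%) against 4.26% of 15843 protein-coding promoters of the same length. YY1 letters were in 11 (17.5% against 3.91%), ETS letters in 19 (30.2% against 14.2%) and the E-box in 7 (11.1% against 8.88%). At least 1 of the 4 was in 35 members (55.6%) and in 26.9% of coding promoters. The coding promoters were taken whether or not their genes were expressed in these cells, whereas the members had passed the filter of 1 FPKM. The part of this difference in the shares was not tested. No letters of different motifs overlapped in the windows shown, and a match is a description of the sequence. Members with NRF1 letters had a median log2 change in the MYCN lines of 0.36 (n = 13) and those without had 0.29 (n = 50), both as deposited FPKM averaged over the 4 lines, and for the E-box the medians were 0.36 (n = 7) and 0.28 (n = 56). For YY1 letters they were 0.33 (n = 11) and 0.28 (n = 52). ETS letters went the other way, with 0.28 (n = 19) in members with them and 0.325 (n = 44) in those without. Differences between members with and without a motif were not tested.

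The subunit genes were expressed at high levels in untreated parental cells. In SH-EP with DMSO the median level of the 77 tested members was 89.1 FPKM, against 10.8 FPKM over all tested genes. FPKM is a value per transcript length, so levels of different genes can be set side by side only roughly. The members' transcripts were short, with a median of 784 bases against 3254 for tested genes with a known length. The part of length in these levels was not tested. By complex, the median was highest for complex IV (220 FPKM), followed by complex V (152 FPKM), complex I (70.2 FPKM), complex III (58.5 FPKM) and complex II (52.9 FPKM). The highest member was COX7C, a small structural subunit of cytochrome c oxidase, at 708 ± 34.2 FPKM (SD, n = 3). ATP5B, the catalytic beta subunit of ATP synthase, followed at 429 ± 8.02 FPKM, and UQCRH, the hinge protein of complex III, stood at 416 ± 11.6 FPKM, so that these neighbours do not differ beyond their spread. The lowest tested member was ATP5S at 2.90 ± 0.787 FPKM, which is named in the ATP5 series but is not a structural subunit of the synthase.

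**Figure D1:**
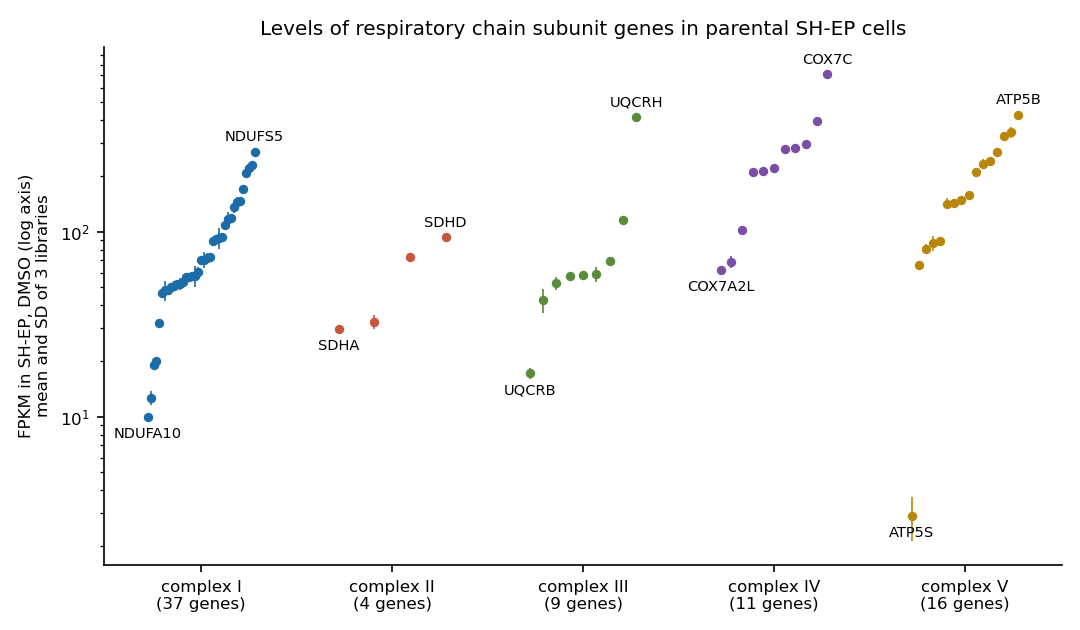
Each point is 1 tested subunit gene, placed by complex, with its mean FPKM (as deposited, log axis) in 3 SH-EP libraries with DMSO and the SD as a bar. COX7C at 708 FPKM is the highest, ATP5S at 2.90 FPKM is the lowest, and complex IV has the highest median.

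Succinate dehydrogenase, the smallest complex, was uneven at the transcript level. The flavoprotein subunit SDHA was at 29.8 ± 1.24 FPKM and the membrane anchor SDHC at 32.6 ± 2.84 FPKM, while the iron-sulfur subunit SDHB was at 73.2 ± 2.59 FPKM and the anchor SDHD at 93.4 ± 1.47 FPKM (SD, n = 3). SDHA has pseudogene copies that could share its reads. Of the 3 genes that encode the same c subunit of the ATP synthase ring, ATP5G1 was highest at 209 ± 5.75 FPKM, ATP5G2 stood at 148 ± 5.16 FPKM and ATP5G3 at 66.0 ± 0.976 FPKM, and their library values did not overlap.

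The isoforms known from muscle, testis and lung were near or at 0. COX4I2, COX6A2, COX7B2 and COX8C were listed at 0 FPKM in all 30 libraries. COX6B2 was at 0 in 29 libraries and COX7A1 in 27, with highest values of 0.105 and 0.548 FPKM. Their ubiquitous partners were at 278 (COX4I1), 283 (COX6A1), 220 (COX6B1), 211 (COX7A2), 297 (COX7B) and 397 FPKM (COX8A) on average in SH-EP with DMSO. The other members that could not be tested were ATP5L2, with a highest value of 0.626 FPKM, and the pseudogene UQCRBP1, with 0.825 FPKM. The muscle genes MYH7, ACTA1 and CKM did not pass 0.421 FPKM in any library.

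Within a group the members varied little. The median coefficient of variation of the tested members was between 3.74% (SH-EP with CYC065) and 10.4% (the T58A S62A line with DMSO), and the highest for 1 gene in a group was 30.7%.

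The first comparison asked how the subunit genes differed between each MYCN line and the parental cells without drug. As deposited FPKM, which measure a gene's share of the mRNA pool, most members were modestly higher in the MYCN lines. In the WT line 57 of 77 members were called higher and 2 lower (limma, adjusted p under 0.05), beside 31.6% and 22.6% of all tested genes. The T58A line had 49 higher and 6 lower (all genes 30.9% and 23.3%), the S62A line 41 higher and 8 lower (31.0% and 23.4%), and the T58A S62A line 58 higher and 3 lower (31.2% and 24.1%). These comparisons share the same 3 SH-EP libraries. The members' median log2 change was 0.37 (WT), 0.28 (T58A), 0.22 (S62A) and 0.31 (T58A S62A), where the median of all tested genes was 0.07, 0.05, 0.06 and 0.06.

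The direction depended on the scale. After scaling to the spike-ins, which relates values to cell number, no member was called higher in any MYCN line, and 75 (WT), 67 (T58A), 77 (S62A) and 48 (T58A S62A) of the 77 were called lower, as were 88.7%, 78.0%, 95.1% and 70.2% of all tested genes. Under that scale the members' medians were -0.90, -0.68, -1.75 and -0.53 and those of all tested genes -1.18, -0.89, -1.88 and -0.76. Even at an unadjusted p under 0.05 no member was higher on the spike-in scale. The spike-in multiplier was 3.08 to 3.32 in the SH-EP libraries with DMSO and 0.720 to 2.02 in those of the MYCN lines. The members' median lay above that of all tested genes on both scales in every line, while its sign rested on the scale. The spike-ins had been added by cell number. Less RNA per cell and an error in the cell count or the spike-in amount cannot be told apart in these libraries.

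With the 4 MYCN lines averaged, 54 members were called higher and 4 lower as deposited, beside 34.6% and 26.3% of all tested genes. By complex, 23 of 37 genes of complex I, 2 of 4 of complex II, 8 of 9 of complex III, 8 of 11 of complex IV and 13 of 16 of complex V were higher. All 12 DMSO libraries of the MYCN lines lay above all 3 SH-EP libraries for 38 of 77 members (49.4%), where the same held for 21.8% of all tested genes. They lay below for 2 members (2.6%), SDHC and NDUFB5, against 16.5% of all tested genes. Among the 1112 most abundant tested genes (mean of at least 88.8 FPKM), which include 58 members, the median change was 0.19 and that of those members 0.30. Of these abundant genes 53.2% were called higher and 24.1% lower with the lines averaged. By line, 56.7% (WT), 46.2% (T58A), 45.1% (S62A) and 49% (T58A S62A) were higher. Lower calls came to 18.5%, 25.2%, 24.9% and 23.4% in the same order. The mesenchymal markers moved with the lines as well. Their summed level was 3802 to 3975 FPKM in SH-EP and 1756 to 2515 FPKM in the MYCN lines with DMSO, with 6 of 8 called lower and 1 higher, and FN1 fell by 3.03 on the log2 scale. Their part in the result was not tested.

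**Figure D2:**
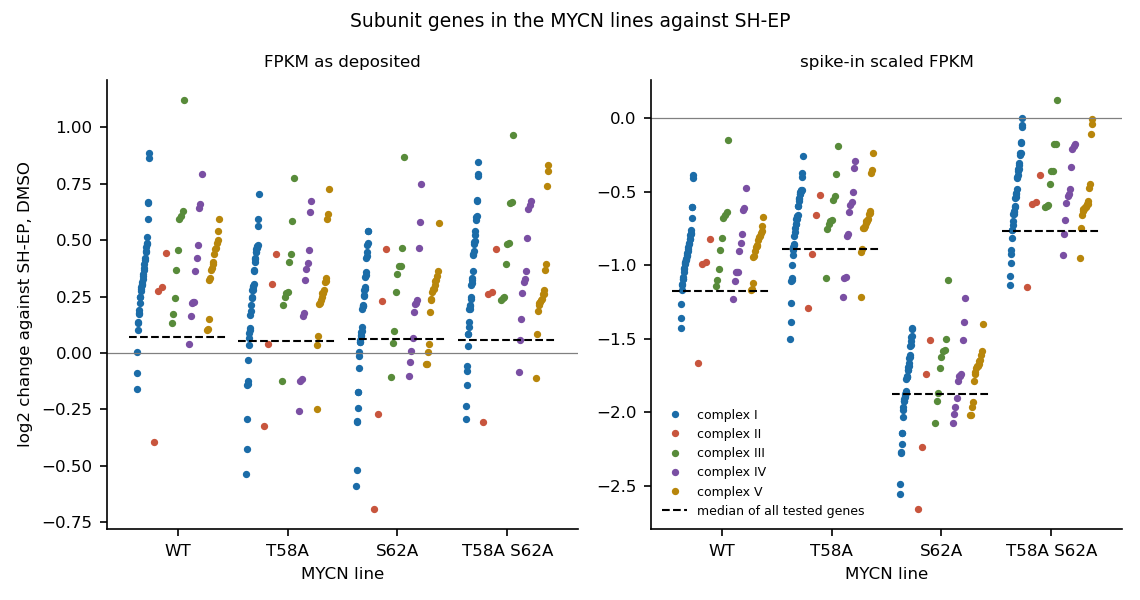
Log2 change of each tested subunit gene (points, coloured by complex) in the 4 MYCN lines against SH-EP with DMSO, as deposited FPKM on the left and spike-in scaled FPKM on the right, with the median of all tested genes as a dashed line. Members' medians of 0.22 to 0.37 on the left become -1.75 to -0.53 on the right.

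The members that rose most as deposited came from several complexes, and on the spike-in scale all of those named next had negative changes averaged over the lines. COX5A, which encodes subunit Va of cytochrome c oxidase (GRCh37 chr15:75212132-75230424, minus strand), was at 104, 105 and 98.6 FPKM in the SH-EP libraries. It was at 181, 178 and 174 FPKM in WT, 156, 159 and 159 in T58A, 161, 174 and 181 in S62A and 163, 160 and 155 in T58A S62A. Every MYCN-line library was above every parental one, and the log2 changes were 0.79 ± 0.05 (SE), 0.62 ± 0.05, 0.75 ± 0.05 and 0.64 ± 0.05, or 1.73-, 1.54-, 1.68- and 1.55-fold (limma adjusted p at most 5.62e-11).

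NDUFS6, an accessory subunit of the part of complex I that takes up electrons from NADH (GRCh37 chr5:1801521-1816162, plus strand; promoter above), was at 109, 108 and 107 FPKM in SH-EP. Its values were 233, 184 and 185 FPKM in WT and 189, 169 and 200 in T58A S62A, and lower at 135, 155 and 161 in T58A and 146, 136 and 172 in S62A. The groups did not overlap with SH-EP, and the log2 changes were 0.88, 0.47, 0.48 and 0.78, each ± 0.09, in the order WT, T58A, S62A and T58A S62A (limma adjusted p at most 0.000108).

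COX7B, an essential small subunit of complex IV, was at 283, 299 and 310 FPKM in SH-EP and between 409 and 529 FPKM in the 12 MYCN-line libraries, with log2 changes of 0.64, 0.67, 0.58 and 0.66, each ± 0.07, in the same order of lines. NDUFV2, the iron-sulfur subunit that works beside the NADH-binding NDUFV1, was at 93.5, 85.6 and 89.4 FPKM in SH-EP and between 122 and 146 FPKM in the MYCN lines (log2 0.67, 0.59, 0.54 and 0.60, each ± 0.06). In complex III, UQCR10 rose from 53.0, 62.8 and 60.8 FPKM to between 71.7 and 97.7 FPKM, by 0.55 ± 0.06 averaged over the lines. The largest value of all, 0.93 ± 0.09, belonged to UQCRHL, a copy so close to UQCRH that their reads may not be separable. UQCRH itself changed by 0.44 ± 0.04.

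In the ATP synthase, the subunit gene ATP5I (promoter above) was at 216, 245 and 237 FPKM in SH-EP. It reached 394, 329 and 331 FPKM in WT, 324, 390 and 355 in T58A, 249, 325 and 302 in S62A and 409, 480 and 339 in T58A S62A, a log2 change of 0.58 ± 0.08 over the lines. The catalytic subunit ATP5B moved less but evenly, from 424, 439 and 426 FPKM to between 492 and 590 FPKM (log2 0.31 ± 0.03, 1.24-fold). The 3 genes of the c subunit did not move alike. ATP5G1 was at 210, 203 and 214 FPKM in SH-EP and rose in each line, by 0.50 (WT), 0.72 (T58A), 0.28 (S62A) and 0.74 (T58A S62A), each ± 0.08. ATP5G3 rose by 0.22 to 0.47. ATP5G2 was called higher in the T58A and T58A S62A lines (0.28 ± 0.09 in both) and had values of 0.11 ± 0.09 in WT and -0.05 ± 0.09 in S62A. Whether these genes differ from each other in their change was not tested.

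Other catalytic and defining subunits were also higher as deposited. Averaged over the lines, the log2 change as deposited was 0.37 ± 0.05 for SDHA, 0.35 ± 0.05 for SDHB, 0.33 ± 0.08 for NDUFV1, 0.50 ± 0.11 for the Rieske protein UQCRFS1, 0.34 ± 0.05 for COX4I1 and 0.20 ± 0.03 for ATP5A1, all with limma adjusted p under 0.05. NDUFS1, the largest subunit of complex I, had 0.17 ± 0.06 (limma adjusted p = 0.0203).

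A few members went the other way. SDHC, a membrane anchor of succinate dehydrogenase (GRCh37 chr1:161284171-161332996, plus strand), was at 31.1, 35.9 and 30.9 FPKM in SH-EP. It was at 27.0, 22.6 and 24.8 FPKM in WT, 25.4, 27.0 and 25.5 in T58A, 19.5, 21.1 and 19.8 in S62A and 26.0, 28.0 and 25.2 in T58A S62A. The S62A libraries were lowest, and no MYCN-line library reached a parental one. The log2 changes were -0.40, -0.33, -0.69 and -0.30, each ± 0.08 (limma adjusted p at most 0.00372), and SDHC fell on the spike-in scale too.

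NDUFB5, an accessory subunit in the membrane arm of complex I (GRCh37 chr3:179322478-179345435, plus strand), was at 134, 128 and 146 FPKM in SH-EP. Its values in the MYCN lines were 124, 122 and 120 FPKM in WT, 93.2, 96.2 and 92.1 in T58A, 103, 114 and 114 in S62A and 102, 123 and 110 in T58A S62A, with T58A lowest. The log2 changes were -0.16, -0.54, -0.30 and -0.29, each ± 0.06.

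COX5B and NDUFS7, whose promoters are shown above, were highest in T58A S62A. COX5B, a peripheral subunit of complex IV, was at 216, 211 and 204 FPKM in SH-EP, 324, 287 and 271 in WT, 268, 275 and 287 in T58A, 222, 251 and 264 in S62A and 342, 344 and 319 in T58A S62A. No MYCN-line library overlapped with SH-EP, and the log2 changes were 0.48, 0.40, 0.22 and 0.67, each ± 0.06. NDUFS7, a core iron-sulfur subunit of complex I, was at 56.6, 55.3 and 59.5 FPKM in SH-EP and at 102, 79.3 and 133 FPKM in T58A S62A (log2 0.84 ± 0.11), but at 57.0, 58.9 and 67.1 FPKM in S62A, which overlapped with SH-EP (log2 0.09 ± 0.11, limma adjusted p = 0.528).

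The next comparison set each mutant line against the WT line with DMSO, as deposited FPKM and with the same 3 WT libraries in each. In T58A 23 of 77 members were lower and 1, ATP5G1, was higher (all tested genes 13.0% and 10.7%). In S62A 26 were lower and 1, ATP5A1, was higher (14.0% and 10.1%). In T58A S62A 11 were lower and 8 higher (14.2% and 9.43%). The members' medians were -0.08, -0.17 and -0.05, beside -0.02 for all tested genes in each. Of the 1112 most abundant tested genes, 32.7%, 36.2% and 31.4% were lower and 7.46%, 7.37% and 6.47% higher. Their medians were -0.102, -0.126 and -0.095, and those of the 58 members among them -0.089, -0.199 and -0.055. NDUFA13, an accessory subunit of complex I also known as GRIM-19, had the largest fall in T58A. It was at 305, 252 and 229 FPKM in WT and at 176, 176 and 158 in T58A, with no overlap (log2 -0.61 ± 0.09, limma adjusted p = 3.99e-05).

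In S62A the largest fall was that of NDUFA3, a small membrane-arm subunit, from 132, 107 and 84.4 FPKM in WT to 63.6, 52.2 and 66.8 FPKM (log2 -0.81 ± 0.15). In T58A S62A the largest rise was that of NDUFA4, named for complex I but known to belong to complex IV, from 63.6, 62.8 and 57.9 to 86.6, 97.5 and 79.1 FPKM (log2 0.51 ± 0.07). MYCN itself was at 13.3, 13.7 and 11.7 FPKM in WT, 7.27, 9.84 and 8.44 in T58A, 5.08, 6.59 and 5.51 in S62A and 15.7, 9.06 and 15.7 in T58A S62A. On the spike-in scale 0 members were called in T58A (limma; 12 higher and 0 lower at an unadjusted p under 0.05), where 8.10% of all tested genes were higher. All 77 were lower in S62A, beside 74.9% of all tested genes, and 20 were higher in T58A S62A, beside 23.3%. The count of 27 called members in S62A was 15 without the first WT library and 17 without the first S62A library.

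CYC065 gave the clearest pattern, and it too has a different sign on the 2 scales. Scaled to the spike-ins, the subunit transcripts fell less than most genes. In WT 77 of 77 members were called lower, in S62A 72, in T58A 36, in T58A S62A 23 and in SH-EP 17, where 93.7%, 90.2%, 84.5%, 76.4% and 76.3% of all tested genes were lower. No member was called higher in any line on this scale (limma, adjusted or at an unadjusted p under 0.05). The members' median log2 changes were -0.29 in the parental SH-EP cells and -1.07 (WT), -0.39 (T58A), -0.62 (S62A) and -0.31 (T58A S62A), while all tested genes had medians of -1.08, -1.58, -1.09, -1.35 and -0.98. In the T58A line the count of 36 rested on single libraries, being 68 without its second DMSO library, 11 without the first and 13 without the third, and 22 without the first and 21 without the third library with CYC065. The T58A S62A count was 36 without the third DMSO library, 10 and 13 without the first and the second, and 8 without the second library with CYC065. The SH-EP count was 10 without the third library of either treatment. With the 5 lines averaged, all 77 members were lower, as were 94.4% of tested genes.

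As deposited FPKM, that is as a share of the remaining mRNA, nearly every member rose. In SH-EP 73 of 77 were called higher, in WT 74, and in T58A, S62A and T58A S62A 75 each, beside 42.7%, 37.0%, 38.1%, 38.8% and 38.6% of all tested genes. The members' medians were 0.97, 0.62, 0.81, 0.88 and 0.78, and those of all tested genes 0.15, 0.06, 0.07, 0.07 and 0.07. Over the 5 lines 75 members were higher, against 46.9% of all tested genes and 91.8% of the 1112 most abundant. By line, 88.8%, 87.1%, 89.6%, 90.2% and 88.6% of these abundant genes were higher, in the same order. Their medians were 0.898, 0.610, 0.709, 0.789 and 0.699, and those of the 58 members among them 0.988, 0.633, 0.827, 0.896 and 0.801. The summed level of the 85 members rose in SH-EP from 10229 ± 168 to 20631 ± 303 FPKM (SD, n = 3). In the MYCN lines with CYC065 it stood between 20688 ± 267 (WT) and 22466 ± 675 FPKM (T58A S62A), whereas with DMSO it had been between 11772 ± 567 (S62A) and 13309 ± 1122 FPKM (WT).

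**Figure D3:**
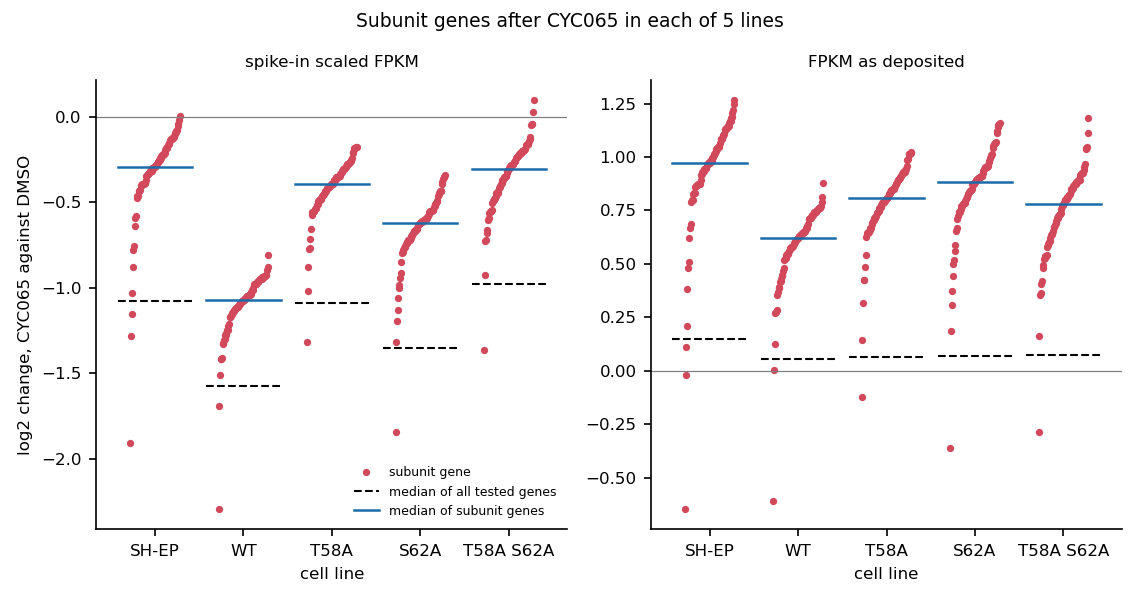
Log2 change with CYC065 of each tested subunit gene in the 5 lines, spike-in scaled on the left and as deposited on the right, with the median of the subunit genes (blue line) and of all tested genes (dashed line). The members' medians lie above those of all genes in every line, at -1.07 to -0.29 on the left and 0.62 to 0.97 on the right.

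Abundance and transcript length moved with this result. The 1112 most abundant tested genes had a median of -0.60 on the spike-in scale over the 5 lines, and the 58 members among them -0.52. The members' transcripts were short, with a median length of 784 bases (76 with a length) against 3254 bases for 11022 tested genes. Genes under 1000 bases had a median change of -0.59 (n = 796) and the 44 members among them -0.49. Genes from 2000 to 4000 bases had -1.28 (n = 3933), and the 10 members among them -0.56. Genes of 4000 bases or more had -1.45 (n = 4238), and the 8 members among them -0.60. Members therefore lay above the median of genes of like length in each of these classes. Across the 76 members Spearman's rho was -0.37 between length and spike-in scaled change and 0.39 between level and change, as a description of genes measured in the same libraries.

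Among the defining subunits, ATP5B was at 424, 439 and 426 FPKM as deposited in SH-EP with DMSO and at 888, 892 and 869 FPKM with CYC065. In the MYCN lines it rose from between 492 and 590 to between 894 and 1020 FPKM. Its log2 changes as deposited were 1.04 in the parental SH-EP cells and 0.76 (WT), 0.81 (T58A), 0.94 (S62A) and 0.87 (T58A S62A), each ± 0.04. Spike-in scaled, the same gene changed by -0.22, -0.93, -0.39, -0.57 and -0.22, each ± 0.18, with falls past the threshold in WT, T58A and S62A. COX4I1, the ubiquitous subunit IV of cytochrome c oxidase, behaved likewise, with 0.58 to 1.08 as deposited and -1.11 to -0.18 on the spike-in scale.

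The members that fell least per cell included NDUFA13 and NDUFS6. NDUFS6 was at 355, 333 and 354 spike-in scaled FPKM in SH-EP with DMSO and at 386, 381 and 285 with CYC065, and these groups overlapped (log2 0.00 ± 0.20). In WT it went from 384, 207 and 236 to 159, 119 and 138, which did not overlap (log2 -0.95 ± 0.20, limma adjusted p = 6.24e-05). Its changes in T58A, S62A and T58A S62A were -0.18, -0.37 and -0.04, each ± 0.20 and not past the threshold. NDUFA13 averaged -0.30 ± 0.08 over the 5 lines, COX7A2 -0.36 ± 0.08, the ATP synthase subunit ATP5L -0.38 ± 0.09 and the complex III subunit UQCRB -0.39 ± 0.09. As deposited all of these were close to 1.00 higher on the log2 scale, between 0.96 and 1.05.

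NDUFV3 stood apart from the other members. It encodes a small accessory subunit of the NADH-binding module of complex I (GRCh37 chr21:44299754-44333414, plus strand). On the spike-in scale it was at 59.6, 60.7 and 61.8 in SH-EP with DMSO and at 19.0, 14.9 and 14.8 with CYC065. In WT it went from 48.8, 29.7 and 29.5 to 8.99, 5.79 and 6.78, in T58A from 40.6, 28.0 and 41.4 to 15.4, 14.9 and 13.2, in S62A from 17.2, 14.0 and 15.5 to 4.53, 3.72 and 4.55 and in T58A S62A from 38.1, 41.7 and 37.6 to 14.1, 12.5 and 19.6. No treated library reached an untreated one of its line, and the log2 changes were -1.91, -2.29, -1.31, -1.84 and -1.37, each ± 0.20 (limma adjusted p at most 1.24e-06).

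It was also the only member called lower as deposited, in SH-EP (-0.65), WT (-0.61), S62A (-0.36) and T58A S62A (-0.28), each ± 0.12, where 33.5%, 34.2%, 34.6% and 34.2% of all tested genes were lower. In T58A, where 33.3% of genes were lower, its value of -0.12 ± 0.12 did not pass. With each library centred on its median, NDUFV3 was called lower in SH-EP (-0.51) and WT (-0.43), and its values of -0.19 in S62A and -0.13 in T58A S62A no longer passed.

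UQCRFS1, the Rieske iron-sulfur protein of complex III (GRCh37 chr19:29696227-29704058, minus strand; promoter above), was among the members that rose least as deposited FPKM. It was at 66.4, 73.9 and 66.8 FPKM in SH-EP with DMSO and at 65.2, 67.3 and 71.8 with CYC065. In WT the values were 134, 98.6 and 92.2 FPKM with DMSO and 88.2, 116 and 119 with CYC065, and in both lines the groups overlapped. In T58A it went from 108, 94.2 and 80.0 to 132, 104 and 116 FPKM and was called higher (log2 0.32 ± 0.14, limma adjusted p = 0.0489), and its values in S62A and T58A S62A were 0.18 ± 0.14 and 0.16 ± 0.14, not past the threshold. With each library centred on its median, it was called higher in T58A, S62A and T58A S62A (0.50, 0.35 and 0.32). Spike-in scaled, it fell by 1.28 in the parental SH-EP cells and by 1.69 (WT), 0.88 (T58A), 1.32 (S62A) and 0.92 (T58A S62A) on the log2 scale, each ± 0.22 (limma adjusted p at most 0.000801).

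SDHA, the flavoprotein of complex II, fell by 1.03 ± 0.08 on the spike-in scale over the 5 lines and rose by 0.32 ± 0.03 as deposited. ATP5S, at low levels throughout, fell by 0.96 ± 0.10 spike-in scaled. The canonical transcript lengths were 5725 (NDUFV3), 3086 (UQCRFS1) and 2693 bases (SDHA), longer than the members' median. The part of length in these values was not tested.

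**Figure D4:**
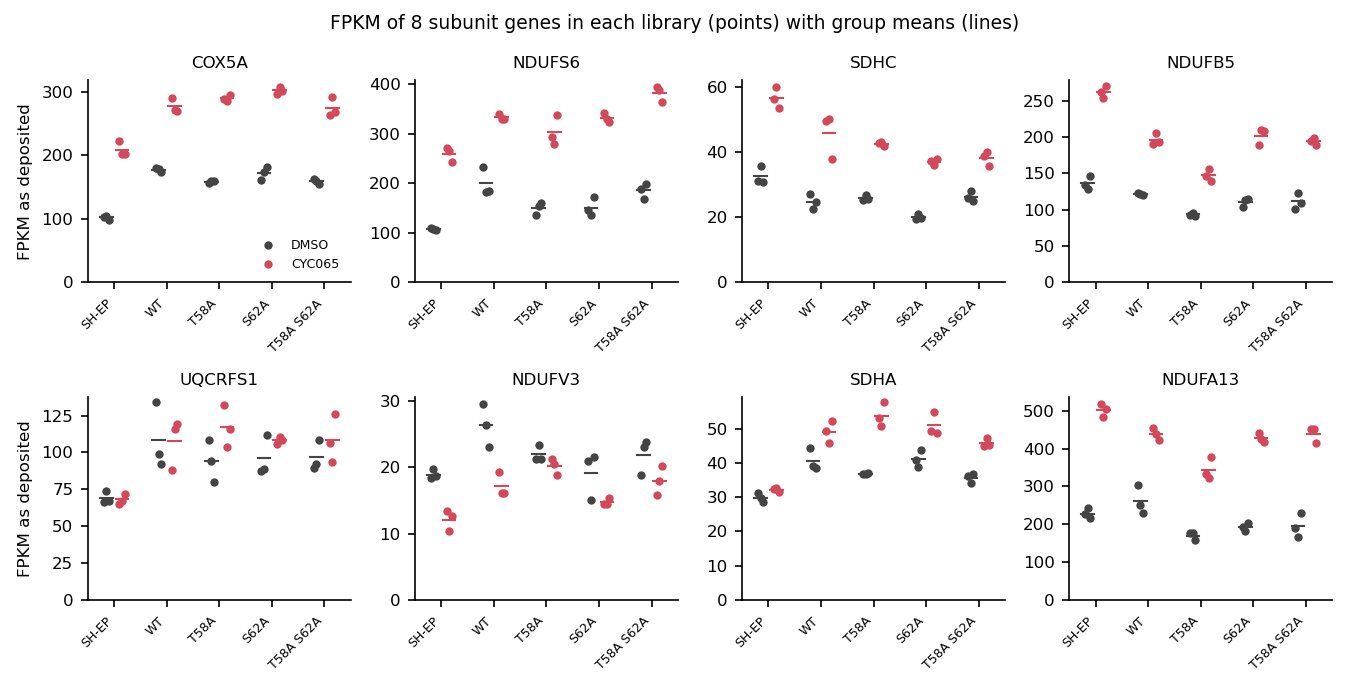
FPKM as deposited (linear axes from 0) of 8 subunit genes in each library, with DMSO in grey and CYC065 in red, 3 points per group and the group mean as a line. COX5A and NDUFS6 are higher and SDHC and NDUFB5 lower in the MYCN lines with DMSO. With CYC065 NDUFV3 was called lower in 4 of the 5 lines (in SH-EP and WT after median centring) and UQCRFS1 overlaps with DMSO in SH-EP and WT.

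The last comparison asked whether the members responded differently to CYC065 in a MYCN line than in SH-EP, as an interaction on the spike-in scale. In WT 40 of 77 members fell more than in SH-EP and 0 fell less (all tested genes 14.1% and 1.82%). In T58A, S62A and T58A S62A limma called 0 members in either direction, and at an unadjusted p under 0.05 there were 1, 2 and 0. Lower and higher calls over all tested genes came to 0.311% and 2.35% in T58A, 1.72% and 3.11% in S62A and 0.190% and 5.27% in T58A S62A. The members' median interaction was -0.79 (WT), -0.11 (T58A), -0.33 (S62A) and 0.02 (T58A S62A), where all tested genes had -0.51, -0.005, -0.28 and 0.08. Of the 1112 most abundant genes, 31.2% were lower in WT, with a median of -0.70, and the 58 members among them had a median of -0.80. These interactions share the 6 SH-EP libraries.

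The WT count was sensitive to single libraries. It was 0 without the first WT library with DMSO, the second or the third WT library with CYC065, the first or second SH-EP library of either treatment, 1 without the third SH-EP library with DMSO, 62 without the third SH-EP library with CYC065 and 69 without the second WT library with DMSO. The smallest adjusted p of a member was 0.0297, so the members stood close to the threshold together. The spike-in multipliers of the WT libraries with DMSO spread from 1.13 to 1.65. As deposited FPKM, 51 members had a lower and 0 a higher interaction in WT, beside 18.1% and 10.4% of all tested genes and 50.5% and 2.97% of the 1112 most abundant. In T58A 12 were lower and 2 higher (all tested genes 14.0% and 9.90%), in S62A 4 and 0 (13.7% and 10.9%) and in T58A S62A 19 and 1 (14.8% and 10.6%). Of the 1112 most abundant genes, 24.7%, 12.9% and 29% were lower and 4.41%, 4.68% and 3.42% higher in these 3 lines.

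By complex, 19 of 37 genes of complex I, 0 of 4 of complex II, 5 of 9 of complex III, 9 of 11 of complex IV and 7 of 16 of complex V had a lower interaction in WT. The lowest value was that of NDUFA3, which was at 299, 292 and 285 spike-in scaled FPKM in SH-EP with DMSO and 292, 262 and 217 with CYC065. In WT it went from 217, 121 and 108 to 74.1, 45.8 and 52.8, an interaction of -1.13 ± 0.32 (limma adjusted p = 0.0333). COX6B1, the subunit at the dimer interface of complex IV, was at 720, 680 and 725 and then 707, 681 and 577 in SH-EP, and at 483, 279 and 299 and then 182, 137 and 153 in WT, an interaction of -1.01 ± 0.29 (limma adjusted p = 0.0344). UQCRFS1 had -0.41 ± 0.31 in WT, which was not past the threshold.

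Other genes of the pathway were read in the same fits. The 46 assembly factors, which help to build the complexes without being part of them, included 23 higher and 4 lower members in the MYCN lines on average as deposited, with a median of 0.22, where 34.6% of all tested genes were higher and 26.3% lower. ECSIT, an assembly factor of complex I, rose by 1.08 ± 0.09, and COX20, a chaperone for a core subunit of complex IV, fell by 1.60 ± 0.05 on the log2 scale. Of 16 tested regulators of mitochondrial biogenesis 10 were higher and 0 lower, with a median of 0.39. PPARGC1A, a listed regulator left untested by the filter, was at 1.77 to 1.88 FPKM in SH-EP with DMSO. It was at 0.797 to 1.75 FPKM in WT, T58A and S62A and 1.42 to 2.09 FPKM in T58A S62A. PPARGC1B, a coactivator of mitochondrial genes, had the largest value at 1.80 ± 0.17. With DMSO it was at 0.440 to 0.539 FPKM in SH-EP and 1.61 to 2.66 FPKM in the MYCN lines. PPARGC1B thus passed the filter through groups where it was high, and its rise is only a description. TFAM, which packages mitochondrial DNA and takes part in its transcription, rose by 0.71 ± 0.07. Of 15 TCA cycle genes 7 were higher and 1 lower (median 0.09), with IDH3B, a subunit of isocitrate dehydrogenase, at 0.54 ± 0.06. On the spike-in scale all 3 medians were negative, at -1.04, -0.87 and -1.17, and ECSIT, TFAM and IDH3B changed sign.

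With CYC065 the 3 lists lay in a different order. On the spike-in scale over the 5 lines, all 46 assembly factors, all 16 regulators and all 15 TCA cycle genes were lower, as were 94.4% of all tested genes, and the medians were -1.05, -2.00 and -0.66, beside -0.54 for the subunit genes and -1.20 for all tested genes. As deposited, 31 assembly factors were higher and 8 lower, 3 regulators higher and 12 lower, and all 15 TCA cycle genes higher, beside 46.9% of all tested genes higher and 39.8% lower. Several falls were larger than that of any subunit. COA7, an assembly factor of complex IV, fell by 3.84 ± 0.10, SDHAF1, which inserts iron-sulfur clusters into SDHB, by 3.10 ± 0.16, MTERF1, a mitochondrial transcription termination factor, by 3.44 ± 0.12 and TEFM, a mitochondrial elongation factor, by 3.23 ± 0.15 on the log2 scale. The TCA cycle gene with the largest fall, DLST, had -1.22 ± 0.08.

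**Figure D5:**
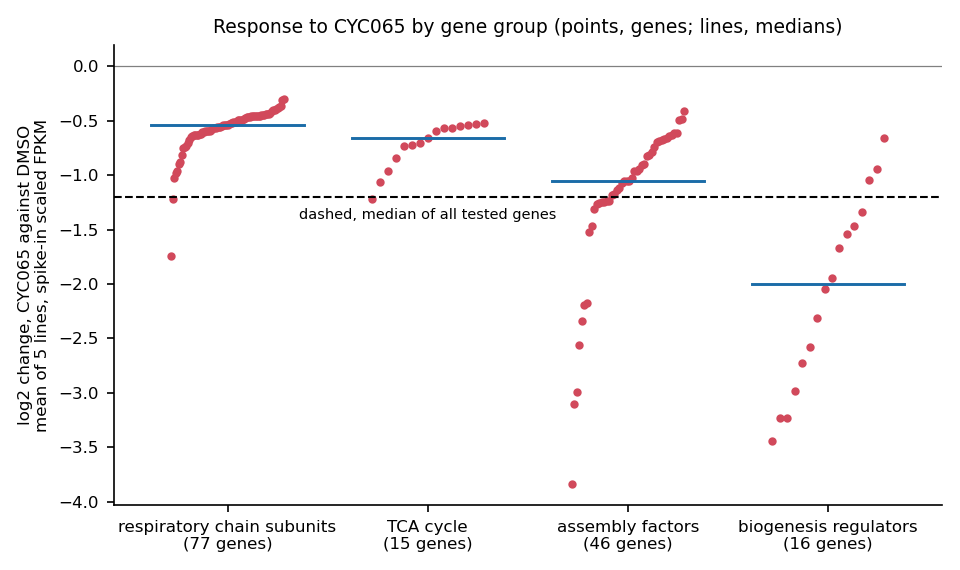
Log2 change with CYC065 on the spike-in scale, averaged over the 5 lines, of each tested gene (points) in 4 groups, with group medians (blue lines) and the median of all tested genes (dashed line, -1.20). The medians of the subunit genes (-0.54) and TCA cycle genes (-0.66) lie above that line and the median of the biogenesis regulators (-2.00) lies below it.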

How the data were processed

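RNA-seq was done on 30 libraries (5 lines, DMSO or CYC065, 3 libraries per group). Per the labels and the study's methods, the authors aligned reads to hg19 with HISAT2 (listed as HISAT in the labels) and made FPKM values per gene with Cufflinks, using strand. The gene annotation was not given in the sources used here. The deposited FPKM table holds 26228 genes and 92 spike-ins. Its columns name the group of each library, and libraries are counted here in the order of the column numbers, which differ from those of the labels. FPKM hold no counts, so depth and counting error are unknown. A change in total RNA per cell is not visible in them.

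Values were tested as log2(FPKM + 0.1) with limma 3.58.1 (R 4.3.3) for the 11575 genes that averaged 1 FPKM or more, in 1 fit over the 10 groups (20 residual degrees of freedom) with a mean-variance trend and Benjamini-Hochberg adjustment over all of them. A fold change on this scale understates the change of low genes. Comparisons of lines used FPKM as deposited. CYC065 effects and interactions used FPKM scaled to the 55 spike-ins that averaged 1 FPKM or more, since the spike-ins had been added by cell number. The code was tested on simulated data. Named genes were the defining subunits, tissue isoforms with their partners, the members with the highest and lowest averaged changes over all members and per complex, and the genes with the largest changes of each other list. NDUFA13, NDUFA3 and NDUFA4 in the mutant lines and the genes whose promoters are shown were chosen after their values were seen. Gene positions and transcript lengths are from GENCODE on GRCh37. The members and lists were chosen with earlier results of these data known. Alternatives were other pseudocounts, filters, scalings and spike-in sets, a fit of the compared groups only, a minimum fold change and leaving out each library. 1 member covered by the rule for named genes is not reported here.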

Additional observations from a re-analysis of the deposited data

Results flagged for a closer look

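The response of the subunit genes to CYC065 differed between the WT MYCN line and SH-EP in a test of the difference itself. On the spike-in scale 40 of 77 members had a lower interaction (limma, adjusted p under 0.05) and 0 a higher one, with a median of -0.79 on the log2 scale. All tested genes had a median of -0.51, and 14.1% of them were called lower. Of the 1112 most abundant tested genes, which include 58 members, 31.2% were called lower, with a median of -0.70. Leaving out 1 library moved the count of 40 between 0 and 69. The spike-in multipliers of the WT line were 1.13 to 1.65 with DMSO and 0.359 to 0.466 with CYC065, and those of SH-EP 3.08 to 3.32 and 1.17 to 1.44. Their part in the result was not tested.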

How the results depend on the processing

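No paired analysis was possible because the table's columns carry numbers that differ from the replicate numbers of the labels. The scale decided most directions. Spike-in scaling gave 0 members higher in each MYCN line and 75 (WT), 67 (T58A), 77 (S62A) and 48 (T58A S62A) lower, with medians of -0.90, -0.68, -1.75 and -0.53. Against WT it called 0 members in T58A and 77 in S62A, with medians of 0.22, -0.87 and 0.37 in T58A, S62A and T58A S62A. Averaged over the lines it gave -0.56 for COX5A, -0.61 for NDUFS6, -0.62 for COX7B, -0.66 for NDUFV2, -0.33 for UQCRHL, -0.68 for ATP5I, -0.70 for ATP5G1, -0.71 for UQCR10, -0.89 for SDHA, -0.91 for SDHB, -0.95 for ATP5B, -0.93 for COX4I1, -0.17 for ECSIT, -0.55 for TFAM and -0.72 for IDH3B.

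For CYC065, FPKM as deposited gave 73, 74, 75, 75 and 75 members higher and 1, 1, 0, 1 and 1 lower (SH-EP, then WT, T58A, S62A and T58A S62A), with medians of 0.97, 0.62, 0.81, 0.88 and 0.78. Of the 1112 most abundant tested genes, 87.1 to 90.2% were higher as deposited in these lines. Centring each library on its median gave 74, 74, 75, 76 and 76 higher and 1, 1, 0, 0 and 0 lower, with medians of 1.11, 0.80, 0.99, 1.05 and 0.93. As deposited and centred, the changes over the lines were 0.13 and 0.29 for UQCRFS1 and for DLST, 0.32 and 0.48 for SDHA, 0.35 and 0.51 for ATP5S, 1.05 and 1.22 for NDUFA13, 1.04 and 1.21 for NDUFS6, 0.99 and 1.15 for COX7A2, 0.97 and 1.14 for ATP5L, 0.96 and 1.13 for UQCRB, 0.88 and 1.05 for ATP5B and 0.86 and 1.02 for COX4I1. The interactions as deposited called 14 (T58A), 4 (S62A) and 20 (T58A S62A) members, beside 23.9%, 24.6% and 25.4% of all tested genes, and centred 7 in T58A and 16 in T58A S62A. Their medians as deposited and centred were -0.36 and -0.32 in WT, -0.088 and -0.058 in S62A and -0.16 and -0.14 in T58A S62A.

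A minimum of 1.5-fold left 13, 8, 2 and 17 members higher and 0, 0, 2 and 0 lower in the lines, in the order WT, T58A, S62A and T58A S62A, and 1, 1 and 0 called in the mutants against WT. With CYC065 it left 9 lower in SH-EP, 7 in T58A and 8 in T58A S62A. Only spike-ins of at least 50 FPKM gave 8 in SH-EP and 4 in T58A. A fit of only the groups compared gave 1 member lower in WT, 15, 8 and 2 called in the mutants, 42 (SH-EP) and 15 (T58A) lower with CYC065 and 4 in the WT interaction, which was 7 with no filter. The cause was not tested. Leaving out 1 library gave 51 to 63, 43 to 50, 37 to 42 and 54 to 57 members higher and 1 to 2, 4 to 6, 6 to 8 and 2 to 4 lower in the same order, and 19 to 27, 15 to 35 and 13 to 22 called in the mutants. With CYC065 it gave 10 to 19 lower in SH-EP, 11 to 68 in T58A, 54 to 72 in S62A and 8 to 36 in T58A S62A, and 0 to 69 in the WT interaction. The medians ranged from -0.164 to -0.029 (T58A against WT), from -0.087 to 0.015 (T58A S62A against WT) and from -0.077 to 0.134 (T58A S62A interaction).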
